A study of Mus musculus with 12 samples.

Results

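The genes described here are the 53 members of a stretch of mouse chromosome 7 from 86 to 99 Mb (GRCm38) that holds *Ccdc83* and *Myo7a*. They were taken by position and level, as every gene that starts in the interval and reaches a CPM (counts scaled to library size) of at least 0.2 in at least 2 mice, with 4 further genes past that filter left out by the rule. They are 53 of the 17937 genes tested in the hippocampus and of the 27179 in the count table. A further 28 gene IDs of the interval stayed under the filter, and 19 of these had 0 counts in all mice. The interval itself was chosen by the values of *Ccdc83* and *Myo7a*, which differ between the genotypes in these libraries. The genotype values of both are given as a description, and where a count includes them their passing a threshold is no evidence. The other 51 genes entered by position.

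The libraries come from bulk hippocampus of 12 adult mice, 3 months of age. There were 3 female and 3 male *Nell-1+/6R* mice, and as many wild-type (WT) littermates of each sex. *Nell-1+/6R* mice carry 1 copy of an ENU-induced loss-of-function allele of *Nell-1*, and no treatment is named for either genotype. The WT titles also contain the abbreviation for a heterozygote, whereas the genotype field says WT. *Nell1* lies on the same chromosome (chr7:49975350-50863289) and ends 39.4 Mb before *Ccdc83*. Its level was 36.5 ± 4.55 CPM in the WT group and 19.1 ± 1.77 CPM in the *Nell-1+/6R* group (SD, n = 6), with every WT mouse above every *Nell-1+/6R* mouse. Its log2 fold change was -0.93 (SE 0.0803, adjusted p = 0.00015, edgeR).

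Library totals ran from 10834905 to 16016317 counts. Summed CPM of 8 hippocampal principal neuron markers was 783.3 to 859.4 in WT and 758.9 to 871.5 in *Nell-1+/6R* mice, and no marker on that list was at 0. Of these 8, 1 was lower and 3 were higher in *Nell-1+/6R* mice at p under 0.05 (3.26% of all genes tested passed it in either direction), with a median log2 fold change of -0.01. Libraries stood apart in the summed CPM of 10 choroid plexus markers, which was 6699.3 in female *Nell-1+/6R* mouse 1 and 6427.4 in male WT mouse 3 against 150.4 to 2824.4 in the other 10 mice. Fold changes of the members that passed a threshold are given with and without these 2 mice, an exclusion chosen after the values were seen.

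Genes that lie near each other on a chromosome are inherited together, and a mutation bred onto a strain carries with it flanking DNA of the chromosome on which it arose. Neighbouring genes can also share a regulatory domain. Values along the chromosome show whether the differences of *Ccdc83* and *Myo7a* are accompanied by differences in the genes around and between them. Which parental DNA each mouse carries in the interval was not measured, so linkage itself was not tested. Myosin VIIa, the product of *Myo7a*, is an actin-based motor of hair cell stereocilia, photoreceptors and the retinal pigment epithelium, and its loss causes deafness in mice and Usher syndrome in people. *Ccdc83* encodes a coiled-coil protein.

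The promoters of both genes are shown because their transcripts are those the interval was drawn for. Each sequence is the minus strand of GRCm38.p6 from RefSeq, 250 bases before the start of an annotated transcript in lower case and the first 50 bases from that start in capitals. The *Ccdc83* promoter lies at chr7:90265383-90265682 and that of the upstream listed start of *Myo7a* at chr7:98119444-98119743. The *Ccdc83* start is the end of the annotated gene, whereas the annotated *Myo7a* gene reaches 29 bases further than the start shown, so the last 29 lower-case bases lie inside it.

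Ccdc83: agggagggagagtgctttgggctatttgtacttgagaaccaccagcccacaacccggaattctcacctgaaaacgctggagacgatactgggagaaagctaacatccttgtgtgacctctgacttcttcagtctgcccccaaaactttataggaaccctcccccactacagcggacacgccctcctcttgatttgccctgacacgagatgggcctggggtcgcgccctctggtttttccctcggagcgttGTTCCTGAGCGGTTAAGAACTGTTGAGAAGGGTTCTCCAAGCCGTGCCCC

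Myo7a: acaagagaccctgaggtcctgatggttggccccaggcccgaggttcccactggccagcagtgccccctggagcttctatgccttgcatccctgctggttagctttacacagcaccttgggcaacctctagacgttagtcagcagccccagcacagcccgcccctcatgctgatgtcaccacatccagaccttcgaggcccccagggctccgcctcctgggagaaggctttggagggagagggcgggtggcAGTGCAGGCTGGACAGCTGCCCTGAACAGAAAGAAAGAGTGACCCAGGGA

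The window of *Ccdc83* had a GC content of 55.0% and that of *Myo7a* 62.0%. Of 5 motifs searched on both strands (the TATA box TATAAA, the CCAAT box, the GC box GGGCGG, the cAMP response palindrome TGACGTCA and the E-box CACGTG), *Ccdc83* held TATAAA on the opposite strand 105 bases before the start, a motif found in 13.6% of the 32851 promoters of the same length. *Myo7a* held GGGCGG 94 bases (opposite strand) and 11 bases before the start shown, the nearer one inside the annotated gene, a motif found in 35.7% of those promoters. A second annotated start of *Myo7a*, at chr7:98109199-98109498, held none of the 5.

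*Ccdc83* (Entrez 75338, chr7:90223500-90265432, minus strand) was nearly silent in WT hippocampus and present in most *Nell-1+/6R* mice. WT females had 0, 3 and 0 counts and WT males 1, 0 and 1. The *Nell-1+/6R* females had 22, 24 and 27 counts and the *Nell-1+/6R* males 2, 11 and 25. Female *Nell-1+/6R* mice lay close together, whereas male *Nell-1+/6R* mouse 1, at 0.135 CPM, stayed inside the WT range, whose top was 0.232 CPM. The WT mean was 0.0687 ± 0.0913 CPM and the *Nell-1+/6R* mean 1.41 ± 0.766 CPM (SD, n = 6). Summed over mice, 5 counts in WT stood against 111 in *Nell-1+/6R*, a ratio of 21.3 after scaling (95% interval 8.84 to 66.7, for counting error only). Of the 5 WT counts 3 came from female WT mouse 2, and without it the ratio was 44.4 (95% interval 12 to 371.0). The fitted log2 fold change was 4.29 (SE 0.703), the highest of all genes tested, and it was 4.58 in females alone, 3.81 in males alone, 4.50 without the 2 mice of high choroid plexus marker sums and 5.07 without female WT mouse 2. At 0.228 CPM per kb of exon *Ccdc83* was still among the lower genes of the interval. In bulk tissue, a change in the number of cells of a type and a change in RNA per cell cannot be told apart.

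*Myo7a* (Entrez 17921, chr7:98051054-98119522, minus strand) was lower in *Nell-1+/6R* mice. WT females had 37.7, 44.3 and 32.7 CPM and WT males 28.9, 35.4 and 26.5 CPM. *Nell-1+/6R* females had 33.7, 20.5 and 17.9 CPM and *Nell-1+/6R* males 18.9, 19.2 and 17.1 CPM. Of the 6 *Nell-1+/6R* mice 5 were below every WT mouse, and female *Nell-1+/6R* mouse 1 lay inside the WT range. Means were 34.3 ± 6.42 and 21.2 ± 6.23 CPM (SD, n = 6), with a log2 fold change of -0.69 (SE 0.139), -0.66 in females alone and -0.71 in males alone. The exceptional mouse is 1 of the 2 with high choroid plexus marker sums, and without both of them the *Myo7a* log2 fold change was -0.90. What that marker level contributes to *Myo7a* was not tested.

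**Figure D1:**
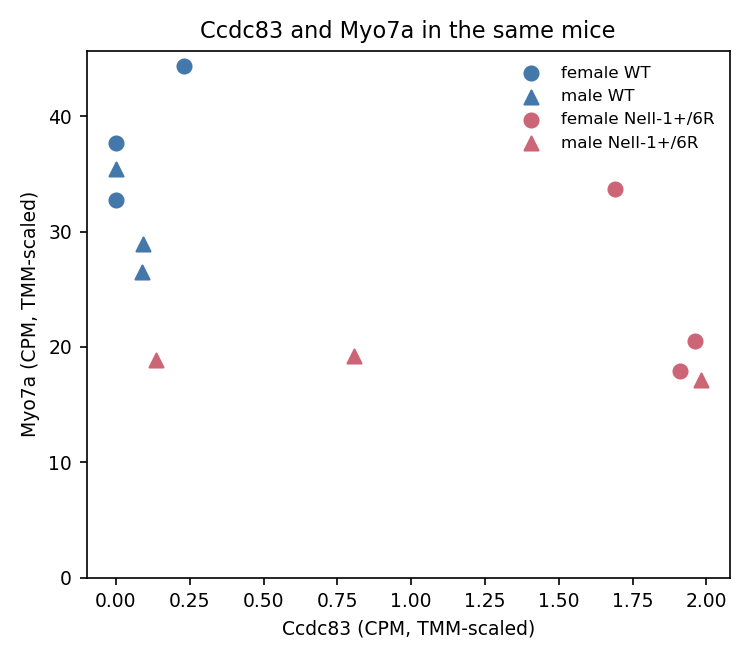
*Ccdc83* level (x axis, CPM) against *Myo7a* level (y axis, CPM) in each of the 12 mice, by sex and genotype. Male *Nell-1+/6R* mouse 1 has the *Ccdc83* level of WT mice (0.135 CPM) with a low *Myo7a* level (18.9 CPM), and female *Nell-1+/6R* mouse 1 has a *Myo7a* level of 33.7 CPM with 1.69 CPM of *Ccdc83*.

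The mice that departed from their genotype were therefore not the same for both genes. Male *Nell-1+/6R* mouse 1 combined WT-like *Ccdc83* (0.135 CPM) with low *Myo7a* (18.9 CPM). Female *Nell-1+/6R* mouse 1 combined raised *Ccdc83* (1.69 CPM) with WT-like *Myo7a* (33.7 CPM). The other 4 *Nell-1+/6R* mice were above every WT mouse in *Ccdc83* and below every WT mouse in *Myo7a*. The correlation of both genes among mice of a group was not computed, since *Ccdc83* had 0 to 3 counts in every WT mouse.

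*Lrrc32* (Entrez 434215, chr7:98489305-98501831, plus strand), which encodes the surface protein GARP that holds latent TGF-beta, starts 8.27 Mb after *Ccdc83* and was lower in *Nell-1+/6R* mice. WT females had 6.29, 6.18 and 4.43 CPM and WT males 5.47, 5.5 and 3.60 CPM. *Nell-1+/6R* females had 3.53, 2.77 and 3.68 CPM and *Nell-1+/6R* males 2.30, 3.60 and 3.56 CPM. Of the WT mice, only male WT mouse 3 reached down into the *Nell-1+/6R* values. The log2 fold change was -0.69 (SE 0.165, unadjusted p under 0.05, adjusted p = 0.80 over all genes in edgeR). Its adjusted p ranged from 0.168 to 1.0 over 23 alternatives. In all 23 the fold change stayed above 1.5 with an unadjusted p under 0.05, and it was -0.80 on the log2 scale without the 2 mice of high choroid plexus marker sums. Of 12 leptomeningeal fibroblast markers 6 were lower at p under 0.05 and 0 higher, where 2.20% of all genes tested were lower at that level. The list was written with earlier results of these data known, so its count is no evidence about such cells. The median log2 fold change of the 12 markers was -0.91. Their summed CPM was 122.5 to 387.1 in WT and 71.7 to 369.9 in *Nell-1+/6R* mice, with no marker at 0. Over the 12 mice, each centred on its group mean, the mean log2 CPM of these markers had r = 0.71 and rho = 0.74 with *Lrrc32* (exact permutation p = 0.0131 and 0.000772, the second the smallest these permutations can give, two-sided, within groups; adjusted 0.309 and 0.0185 over 24 relations of marker lists with *Lrrc32*, *Myo7a* and *Tsku*; r = 0.76 without the 2 farthest mice). Their part in the *Lrrc32* difference between genotypes was not tested. Endothelial cells also express *Lrrc32*. For 10 endothelial markers, a list written after the values were seen, the sums were 185.7 to 226.3 CPM and 179.0 to 220.3 CPM, and 1 was lower at p under 0.05. Their r with *Lrrc32* was 0.61 and rho 0.52 (permutation p = 0.0918 and 0.0772, adjusted 0.489 and 0.463, r = 0.56 without the 2 farthest mice). For the other 6 lists r with *Lrrc32* was -0.21 to 0.17 and rho -0.29 to -0.04 (permutation p = 0.515 to 0.995, adjusted 0.772 to 0.995, r = -0.13 to 0.44 without the 2 farthest mice).

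**Figure D2:**
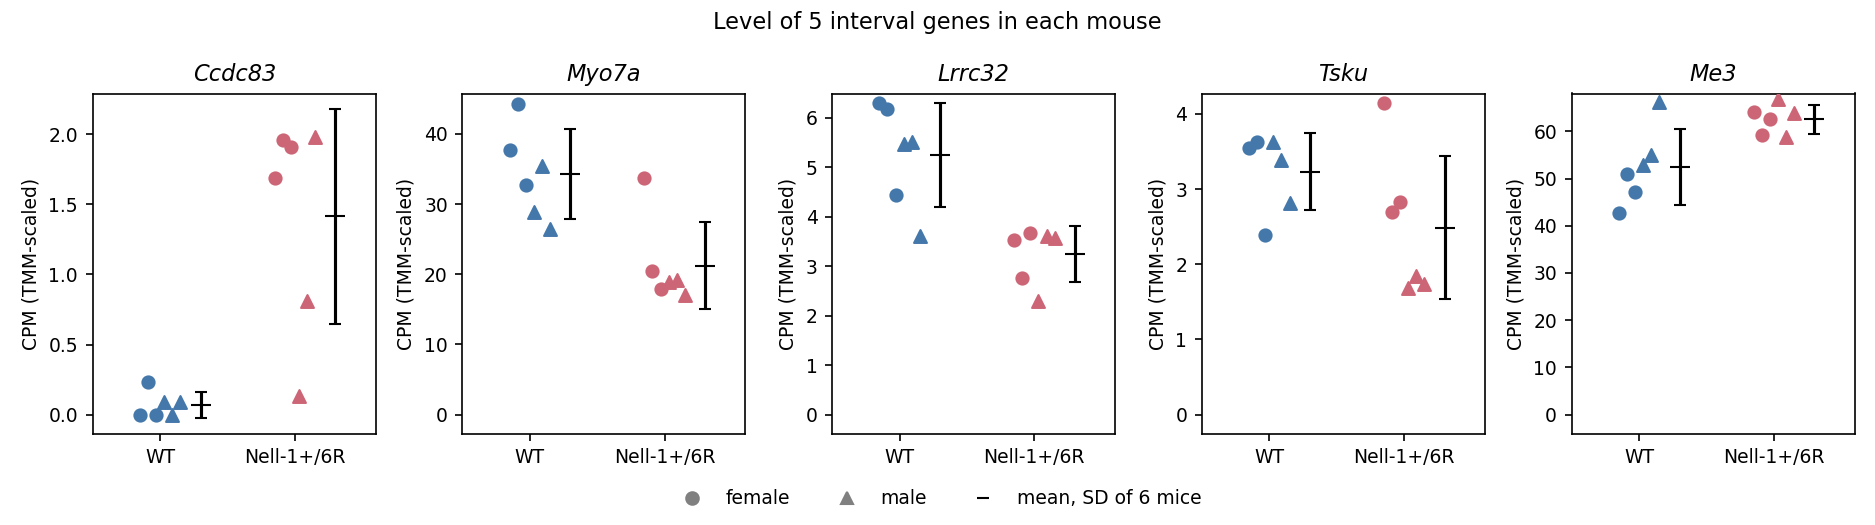
CPM (y axis, scaled by TMM) of *Ccdc83*, *Myo7a*, *Lrrc32*, *Tsku* and *Me3* in each mouse, by genotype on the x axis, circles for females and triangles for males, with mean and SD of 6 mice as bars. In *Ccdc83* and *Myo7a* 5 of 6 *Nell-1+/6R* mice lie outside the WT range. In *Lrrc32* and *Me3* only male WT mouse 3 (3.60 and 66.3 CPM) reaches the *Nell-1+/6R* values.

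With the fold change above 1.5 and p under 0.05 before adjustment, 3 of the 53 genes (5.66%) were called, *Ccdc83* higher and *Myo7a* and *Lrrc32* lower, where 1.46% of all genes tested were. For lower genes alone it was 2 members against 1.07% of all genes, and for higher genes alone 1 against 0.385%. As *Ccdc83* and *Myo7a* drew the interval, their part of these counts was fixed beforehand. Of the other 51 genes 1 was called (1.96%), *Lrrc32*. At p under 0.05 without a fold threshold, 4 of the 51 were called, *Lrrc32*, *Folh1*, *Me3* and *Capn5*, against 3.26% of all genes. Of these 3 were higher, where 1.06% of all genes were, and 1 lower, where 2.20% were. None of the 51 had an adjusted p under 0.05 with edgeR, limma-voom or DESeq2, where 0.039% of all genes did with edgeR.

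The median log2 fold change of the 53 was 0.02 against 0.00 over all genes, with 32 above 0 and 21 below. Within 0.25 of 0 lay 46 of the 53 (86.8%), where 82.8% of all genes tested did. Between *Ccdc83* and *Myo7a*, 7.83 Mb apart by their starts, lie 29 members, none of which had p under 0.05; at the share of 3.26% over all genes a count of 0 among so few genes is no result about them. Their log2 fold changes ran from -0.20 to 0.63 with a median of 0.02, and the value of 0.63 belongs to the noncoding *4632427E13Rik*, at most 0.407 CPM in any mouse. Before *Ccdc83* lie 12 members (median 0.06, 8 above 0), of which *Folh1* and *Me3* were higher at an unadjusted p under 0.05. After *Myo7a* lie 10 (median 0.00, 5 above 0), of which *Capn5* was higher and *Lrrc32* lower at that level.

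**Figure D3:**
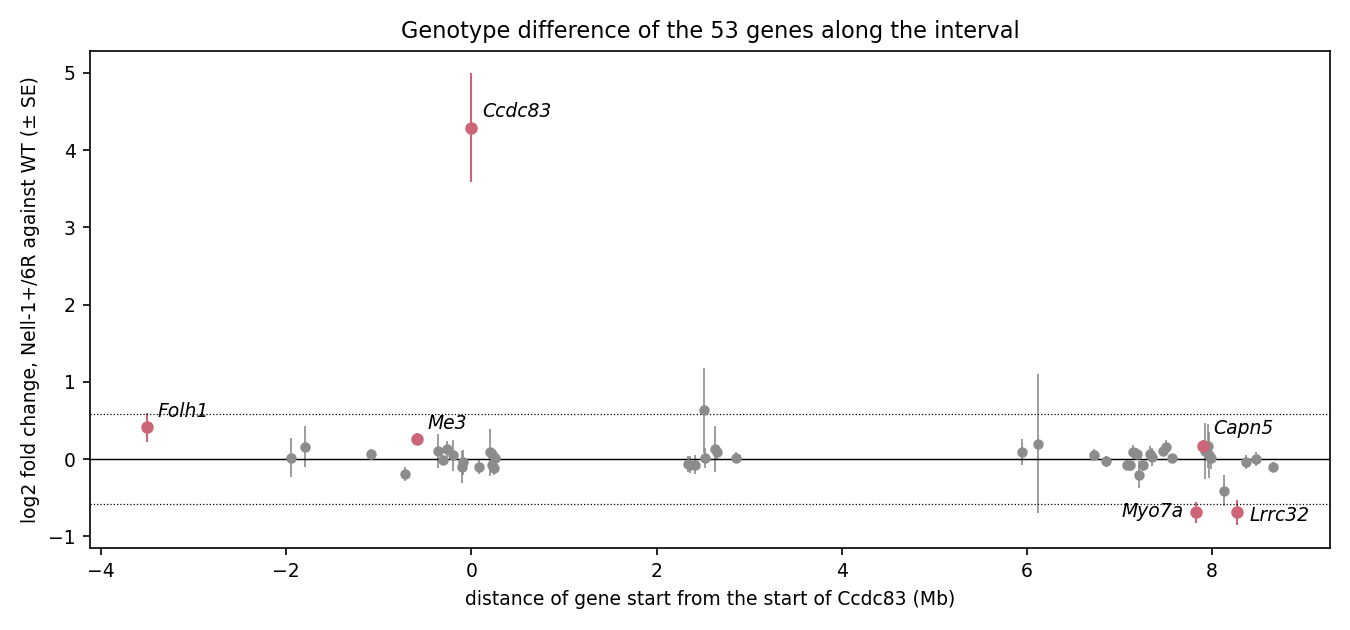
Log2 fold change of each of the 53 genes, *Nell-1+/6R* against WT (y axis, bars are SE), against the distance of its start from that of *Ccdc83* in Mb (x axis). Dotted lines mark a fold change of 1.5. *Ccdc83* (4.29), *Myo7a* (-0.69) and *Lrrc32* (-0.69) stand away from the line at 0. The 29 genes between *Ccdc83* and *Myo7a* run from -0.20 to 0.63. The value of 0.63, past the dotted line, belongs to *4632427E13Rik*, at most 0.407 CPM in any mouse.

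The immediate neighbours of both genes follow. *Picalm*, which encodes a clathrin assembly protein and ends 14.1 kb before *Ccdc83*, had a log2 fold change of -0.04 (SE 0.161), with 37.4 to 59.2 CPM in WT and 33.9 to 61.8 CPM in *Nell-1+/6R* mice. The noncoding *E230029C05Rik* and *2310010J17Rik*, further from *Ccdc83* on the same side as *Picalm*, were at 0.05 (SE 0.198) and -0.10 (SE 0.207). *Sytl2*, a Rab-binding protein of secretory traffic on the other side of *Ccdc83*, was at -0.10 (SE 0.0872). *Pak1*, a kinase of the actin cytoskeleton on the near side of *Myo7a*, was at 0.02 (SE 0.0472). *Pak1* had the highest level per length of the interval (79.8 CPM per kb of exon) and its groups overlapped widely, at 292.2 to 331.3 CPM in WT and 296.9 to 331.7 CPM in *Nell-1+/6R* mice. Next to it lie *Aqp11*, an intracellular aquaporin, at 0.16 (SE 0.0911), and *Clns1a*, a chaperone of spliceosomal particle assembly, at 0.10 (SE 0.0523). *Capn5*, a calpain protease which lies 2.04 kb beyond *Myo7a*, had 89.6 ± 7.86 CPM in WT mice and 100.7 ± 10.2 CPM in *Nell-1+/6R* mice (log2 fold change 0.17, SE 0.0759, unadjusted p under 0.05, adjusted p = 1.0, edgeR), the opposite sign to *Myo7a*. It had p under 0.05 in 15 of 23 alternatives and was 0.20 without the 2 mice of high choroid plexus marker sums. It overlaps *Omp* and *Gm16938*, so reads there could be shared. *Omp*, olfactory marker protein, was at 0.135 to 0.713 CPM in all mice with a log2 fold change of 0.10 (SE 0.363).

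Of the 7 mitochondrial genes 1, *Me3*, had p under 0.05, where 3.26% of all genes tested did, and 1 gene in so short a list does not set the list apart. *Me3* (Entrez 109264), mitochondrial malic enzyme, was 42.7, 51.0 and 47.1 CPM in WT females and 52.9, 54.9 and 66.3 CPM in WT males. It was 64.1, 59.2 and 62.6 CPM in *Nell-1+/6R* females and 66.8, 58.7 and 63.8 CPM in *Nell-1+/6R* males. Every WT mouse but male WT mouse 3 lay below every *Nell-1+/6R* mouse, a log2 fold change of 0.26 (SE 0.0776, unadjusted p under 0.05, adjusted p = 1.0, edgeR). It held an unadjusted p under 0.05 in 22 of 23 alternatives, the exception being males alone, and was 0.30 without the 2 mice of high choroid plexus marker sums. *Tmem135*, a membrane protein linked to mitochondrial shape, had 52.5 ± 3.70 CPM in WT mice and 55.0 ± 3.92 CPM in *Nell-1+/6R* mice (log2 fold change 0.07, SE 0.0655).

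Of the 6 genes for secreted and surface proteins and proteases, *Folh1* and *Capn5* were higher and *Lrrc32* lower at p under 0.05, where 3.26% of all genes tested passed. The list was written with earlier results of these data known, so its count is no evidence about such genes. *Folh1* (Entrez 53320), glutamate carboxypeptidase II, had 8.18 ± 2.55 CPM in WT mice and 10.8 ± 1.58 CPM in *Nell-1+/6R* mice (log2 fold change 0.41, SE 0.183, unadjusted p under 0.05, adjusted p = 1.0, edgeR), with p under 0.05 in 13 of 23 alternatives and a value of 0.47 without the same 2 mice. *Prss23*, a serine protease, had a log2 fold change of -0.19 (SE 0.0951, adjusted p = 1.0, edgeR).

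None of the 8 genes of endocytosis and membrane traffic, the 12 of chromatin, transcription and RNA, the 5 of synapse, adhesion and neuronal signalling and the 2 lipid enzymes had p under 0.05. Lists of this size would hold few or no such genes at the share over all genes (3.26%), so these counts do not set the groups apart. *Acer3*, an alkaline ceramidase of the lipid list, was at 0.01 (SE 0.133). The chromatin list ran from -0.08 to 0.13 and includes *Eed*, a Polycomb subunit (0.13, SE 0.10), *Crebzf* (-0.08, SE 0.0544) and *Thap12* (0.00, SE 0.0873). It also holds *Alg8*, which is an N-glycosylation enzyme. *Dlg2*, a postsynaptic scaffold and the gene of highest CPM in the interval, had 350.0 ± 35.0 CPM in WT mice and 354.7 ± 57.9 CPM in *Nell-1+/6R* mice. In the traffic list, which ran from -0.10 to 0.16, *Uvrag*, an autophagy and endosome regulator, was at -0.10 (SE 0.067). *Ccdc81* and *Ccdc89*, the other coiled-coil genes, were at 0.11 (SE 0.218) and 0.09 (SE 0.303).

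**Figure D4:**
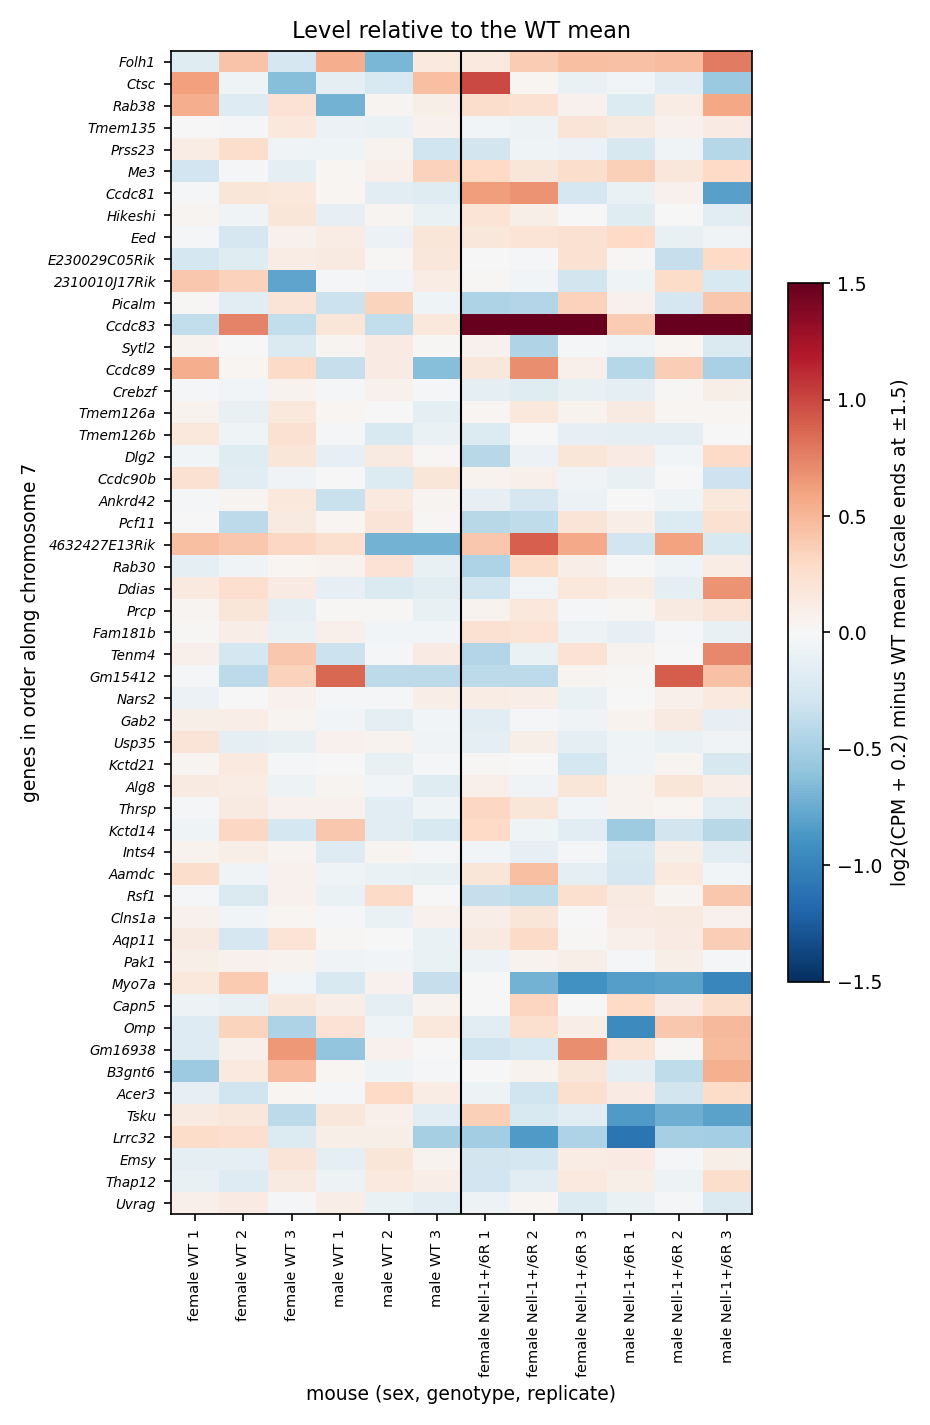
Level of the 53 genes (rows, in order along the chromosome) in each of the 12 mice (columns), as log2(CPM + 0.2) minus the mean of the WT mice, red for higher and blue for lower. *Ccdc83* is red in 5 of 6 *Nell-1+/6R* columns, and *Myo7a* and *Lrrc32* are blue in most of them. No row of the 53, these included, separates all mice of the genotypes, where 0.151% of all genes tested did.

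No member separated all 6 mice of 1 genotype from all 6 of the other, where 0.151% of all genes tested did. In 4 genes the genotypes were separated when some 1 of the 12 mice was left out, where 1.91% of all genes tested were separated so or with all mice. Without *Ccdc83* and *Myo7a*, which drew the interval, it was 2 of the other 51 (3.92%). *Ccdc83* separated the genotypes without male *Nell-1+/6R* mouse 1 (0.245% of all genes did) or without female WT mouse 2 (0.329%). *Myo7a* did so without female *Nell-1+/6R* mouse 1 (0.351%). *Me3* and *Lrrc32* did so without male WT mouse 3 (0.329%), and *Lrrc32* also without female *Nell-1+/6R* mouse 3 (0.457%). Without both mice of high choroid plexus marker sums, *Me3*, *Myo7a* and *Lrrc32* separated the genotypes, against 0.602% of all genes. That exclusion was chosen after the values were seen. It removes the mice that overlapped in these 3 genes, so their separation was fixed by the choice and is no evidence. Within a sex, where only 3 mice face 3, 9 members separated the genotypes in females (6.0% of all genes) and 10 in males (10.4%).

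Sex was not used to choose the interval and was tested. No member differed between males and females at an adjusted p under 0.05 (0.0335% of all genes did), with 0 also in limma-voom and DESeq2. At an unadjusted p under 0.05 it was 4 members, *Hikeshi*, *Ccdc89*, *4632427E13Rik* and *Myo7a*, against 4.72% of all genes. *Myo7a* was 38.2 ± 5.84 CPM in WT females and 30.3 ± 4.64 CPM in WT males (SD, n = 3), and lower in males by 0.36 on the log2 scale over both genotypes (SE 0.139, adjusted p = 0.868, edgeR).

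*Tsku* (Entrez 244152), tsukushi, a secreted antagonist of several growth factor pathways, had the only interaction of genotype with sex at p under 0.05 among the 53 (3.09% of all genes had one). WT females had 3.54, 3.63 and 2.39 CPM and *Nell-1+/6R* females 4.14, 2.69 and 2.83 CPM, which overlap. WT males had 3.62, 3.38 and 2.81 CPM and *Nell-1+/6R* males 1.69, 1.84 and 1.74 CPM, which do not. The log2 fold change was 0.02 in females alone and -0.89 in males alone, a difference of -0.91 (SE 0.33, adjusted p = 0.987, edgeR). Without female *Nell-1+/6R* mouse 1 the difference was -0.69 (SE 0.324, adjusted p = 1.0, edgeR) and no longer had p under 0.05. Without both mice of high choroid plexus marker sums it was -0.77 (SE 0.337, adjusted p = 1.0, edgeR), with p under 0.05.

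Within the 4 groups of sex and genotype, *Tsku* was also the gene most like *Myo7a* by r and by rho over all 12 mice. Over the 12 mice, each centred on its group mean, Pearson's r was 0.81 and Spearman's rho 0.79 (exact permutation p = 0.0332 and 0.0347, two-sided, within groups; adjusted 0.417 and 0.429 over 45 genes), with 0.74 for r once the most distant pair of mice was removed. By r over all 12 mice *Dlg2* came next (r = -0.73, rho = -0.73, permutation p = 0.0656 and 0.0401, r = -0.39 without those mice). *Tenm4*, a teneurin of cell adhesion, followed (r = -0.71, rho = -0.73, permutation p = 0.0154 for both, r = -0.60 without them). Their adjusted p was 0.417 to 0.492. By rho *Tmem126b* came next (rho = -0.74, r = -0.69, permutation p = 0.034 and 0.0309, adjusted 0.429 and 0.417). Without the most distant pair of mice, *Tmem126b* (r = -0.89), *Capn5* (-0.83) and *Prss23* (0.75) had a larger absolute r than *Tsku*. Marker lists of 8 cell types were set against *Tsku* and *Myo7a* among the 12 mice. None of these relations had an adjusted p under 0.05, adjusted over 24 with those of *Lrrc32*, and the part of any of these cell types in the likeness was not tested. The mean log2 CPM of the endothelial markers, the list written after the values were seen, had r = 0.77 and rho = 0.74 with *Tsku* (permutation p = 0.0386 and 0.0463, adjusted 0.309 and 0.37, r = 0.74 without its 2 farthest mice) and r = 0.61 and rho = 0.57 with *Myo7a* (permutation p = 0.133 and 0.103, adjusted 0.531 and 0.475, r = 0.51). For choroid plexus markers r was 0.53 and rho 0.61 with *Tsku* (permutation p = 0.203 and 0.143, adjusted 0.696 and 0.475, r = 0.70) and r = 0.55 and rho = 0.57 with *Myo7a* (permutation p = 0.266 and 0.158, adjusted 0.699 and 0.475, r = 0.54). For ependymal markers they were 0.65 and 0.76 with *Myo7a* (permutation p = 0.0378 and 0.0162, adjusted 0.309 and 0.194, r = 0.58) and 0.34 and 0.46 with *Tsku* (permutation p = 0.32 and 0.235, adjusted 0.699 and 0.593, r = 0.33). For the other 5 lists r with *Myo7a* ran from -0.02 for leptomeningeal markers over 0.10 for principal neuron and 0.32 for microglia markers to 0.54 for thalamus and habenula markers, and rho from 0.10 to 0.50. With *Tsku* their r ran from -0.17 for principal neuron markers over 0.30 for microglia markers to 0.47 for thalamus and habenula markers, and their rho from -0.18 to 0.45. Their permutation p was 0.102 to 0.972 (adjusted 0.475 to 0.995), and without the 2 farthest mice their r was 0.24 to 0.70 with *Myo7a* and 0.04 to 0.76 with *Tsku*, the highest in each case for melanocyte markers.

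The interval genes also shared variation among mice of a group. Over the 34 with a mean count of at least 100, a single axis held 48.7% of the spread, and 52.9% without the 2 mice of high choroid plexus marker sums. Such an axis is not particular to the interval, since over the 10567 genes outside it with that mean count the first axis held 51.5%. *Thap12* (r = 0.99), *Dlg2* (0.96), *Picalm* (0.95), *Rsf1* (0.94), *Pcf11* (0.93) and *Tenm4* (0.91) rode on 1 end and *Kctd21* (-0.96), *Fam181b* (-0.94), *Thrsp* (-0.86) and *Uvrag* (-0.84) on the other, as a description over 12 mice. The ends differed in exon length, counted over the merged exons of all annotated transcripts of a gene and not over 1 transcript. It was 4125 to 21021 bases (median 16006) in the first 6 genes and 2003 to 9035 (median 2577) in the other 4. Across the 34 genes, which share the same libraries, the place on the axis had r = 0.56 with log2 exon length and rho = 0.50. A difference by length can be a sign of RNA quality, whose part in this axis was not tested. *Myo7a* had r = -0.61, and mice of both genotypes lay at either end, female *Nell-1+/6R* mouse 3 (0.52) and female WT mouse 3 (0.35) against female *Nell-1+/6R* mouse 1 (-0.35) and female WT mouse 2 (-0.34).

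Genes outside the interval for partners of myosin VIIa and for related proteins were also counted, together called *Myo7a* partner genes here. The 24 genes encode Usher proteins, ankle-link proteins, microvillar and melanosome proteins and related myosins, not all of them known to bind myosin VIIa. Of these 23 were tested, and none had p under 0.05 with edgeR (1, *Cdh23*, with limma-voom and with DESeq2). Without the 2 mice of high choroid plexus marker sums it was also 0 in edgeR. With 3.26% of all genes at that level, a count of 0 is near the share over all genes. Their log2 fold changes were below 0 in 12 and above 0 in 11, with a median of -0.01. *Cdh23*, the tip-link cadherin, had 5.31 ± 1.45 CPM in WT mice and 6.72 ± 0.624 CPM in *Nell-1+/6R* mice (log2 fold change 0.34, SE 0.167, adjusted p = 1.0, edgeR).

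Other stretches of chromosome 7 of the same length are given for description. With the 4 left-out genes included, 3 of 57 genes (5.26%) of the interval passed p under 0.05 with a fold change above 1.5, but *Ccdc83* and *Myo7a*, which drew it, are 2 of the 3, and without them it was 1 of 55 (1.82%). In the stretch just before it, 73 to 86 Mb, 0 of 101 did, and in the stretch just after it 3 of 133 (2.26%), all lower. In the 44 to 57 Mb stretch that holds *Nell1*, 6 of 146 did (4.11%), all lower, of which *Nell1* is 1, and without it 5 of 145 (3.45%). Over all genes tested it was 1.46%. These shares were not compared with a test.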

How the data were processed

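RNA of bulk hippocampus from 12 mice was sequenced, and the authors deposited raw counts per gene under Entrez IDs in 1 table, neither normalized nor pooled. The submitters' processing notes name HISAT2 2.1.0, featureCounts 2.0.1 and mm10. How strand was treated in counting is not stated in the labels or methods, and reads of overlapping genes cannot be assigned between them (16 of the 53 members overlap another gene). All columns were matched to mice by the short names in the labels. Of the gene IDs, 25275 were named from RefSeq GRCm38.p6 and 18 from GENCODE, and 1886 stayed unnamed.

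Genes reaching a CPM of 0.2 in 2 or more mice were fitted with edgeR 4.0.16 (R 4.3.3), by the quasi-likelihood test with TMM scaling, sex and genotype as terms, and Benjamini-Hochberg adjustment over all 17937. The interaction came from a model with the product of sex and genotype. CPM values are TMM-scaled, SDs are over mice, and log2 CPM for correlations used a prior count of 2. A gene was called at p under 0.05 with a fold change above 1.5, or at an adjusted p under 0.05. Each mouse is 1 replicate. The WT mice were littermates per the study's methods, but the labels do not say which mice shared a litter. Depth ran from 10834905 to 16016317 counts, and 7 members had a mean count under 10. The fitting code was tested on simulated data.

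The members and lists were chosen with earlier results of these data known. Genes named are *Ccdc83* and *Myo7a*, their 3 neighbours on either side, members with p under 0.05 for genotype or the interaction, the 3 of highest CPM, the 2 of highest CPM in each role list and the 3 most like *Myo7a* (27 in all). *Rsf1*, *Pcf11*, *Kctd21*, *Fam181b*, *Eed*, *Alg8*, *Hikeshi*, *4632427E13Rik*, *Tmem126b* and *Cdh23* were named after their values were seen. The other marker lists gave these counts at p under 0.05, where 3.26% of all genes passed: ependymal 0 of 8, choroid plexus 0 of 10, microglia 0 of 6, thalamus and habenula 0 of 5, melanocyte 1 of 6 (higher), hippocampal principal neuron 1 lower and 3 higher of 8. Alternatives were other scalings, tools, filters, windows and gene sets, no sex term, a replicate block, each sex alone and each mouse left out. limma 3.58.1 and DESeq2 1.42.0 were used for these, and Python 3.11.15 with scipy 1.17.1 for tables.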

Additional observations from a re-analysis of the deposited data

Results flagged for a closer look

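*Myo7a* in female *Nell-1+/6R* mouse 1, at 33.7 CPM, stood apart from the other 5 mice of its genotype (17.1 to 20.5 CPM): its gap to the next mouse was 0.799 of the whole range of the group. It was the only such sample among 56 groups of 6 mice examined, where chance marks about 1 in 20. This mouse also had the highest choroid plexus marker sum (6699.3 CPM), whose part in the *Myo7a* value was not tested.

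The genotype difference of *Tsku* was -0.91 in males minus females on the log2 scale (unadjusted p under 0.05, adjusted p = 0.987, edgeR interaction). The 3 *Nell-1+/6R* males were all below the 3 WT males, whereas females overlapped. Without female *Nell-1+/6R* mouse 1 the interaction no longer had p under 0.05.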

How the results depend on the processing

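Of 236 alternative values for the counts, medians and the fold changes of *Ccdc83* and *Myo7a*, 205 stayed within their limits, 31 moved and 0 reversed. For single genes, of 595 values 19 lost p under 0.05 and 11 gained it. The *Ccdc83* log2 fold change ran from 3.90 to 5.07 and that of *Myo7a* from -0.84 to -0.61 with each mouse left out; *Ccdc83* had no value under the stricter filter (CPM of 1 or more in 6 mice). The count of members with adjusted p under 0.05 was 0. It moved only through *Ccdc83* and *Myo7a*, which drew the interval, so the moves are no evidence about either. It was 1 (*Ccdc83*) with upper-quartile factors or with no filter, 2 with DESeq2, 0 to 1 with a mouse left out (1 without female *Nell-1+/6R* mouse 1, *Myo7a*, or without male *Nell-1+/6R* mouse 1, *Ccdc83*), and 1 without the 2 mice of high choroid plexus sums, an alternative chosen after seeing the data. The 51 other members gave 0 with edgeR, limma-voom and DESeq2. The count of members whose genotypes do not overlap was 0 over all mice, 9 in females alone (6.0% of all genes) and 10 in males alone (10.4%), where only 3 mice face 3, 0 to 2 with a mouse left out and 3 without those 2 mice. The interaction count of 1 was 2 under the stricter filter and 0 to 3 with a mouse left out (0 without female *Nell-1+/6R* mouse 1, 3 without female *Nell-1+/6R* mouse 3 or female WT mouse 2, and 2 without female WT mouse 1, male *Nell-1+/6R* mouse 1, male *Nell-1+/6R* mouse 3 or male WT mouse 1). The count of *Myo7a* partner genes was 0, but 1 with limma-voom and 1 with DESeq2, and 0 to 2 with a mouse left out (2 without female *Nell-1+/6R* mouse 3, and 1 without female WT mouse 2, male WT mouse 1 or male WT mouse 3). The cause of these moves was not tested.

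Whether the replicate numbers pair the mice is not known, since the labels name no litters. Same-numbered mice of a sex had correlations of -0.204 to 0.238, which cannot show whether they were littermates. With a replicate block the counts were 1 member at adjusted p under 0.05 (*Ccdc83*), 2 interactions and 1 partner gene. The correlation of *Ccdc83* with *Myo7a* within groups was not run, because *Ccdc83* had 0 to 3 counts in every WT mouse. At 0 to 3 counts a mouse, depth limits any statement on *Ccdc83* in WT.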
